A study of Homo sapiens with 10 samples.

Results

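RNA of 9 surface antigens of B cells, each a target of therapeutic antibodies in use or in development, was read in 2 mantle cell lymphoma lines: CD52, MS4A1 (CD20), CD22, CD37, CD24, CD200, CD70, CD79A and CD79B. The 9 genes were chosen by name, with earlier results of these data known, so counts over them are descriptions. They are covered by 26 probe sets that the platform annotation pairs with that symbol alone, of 54675 probe sets on each array. All 26 were read, and for each gene the probe set with the highest mean over the 10 arrays was its main row. All 9 genes passed the filter on low values (at or above the array's median on at least 2 arrays), as did 14529 genes in all.

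The arrays held total RNA of 2 cultured lines, HBL2 and JEKO. Each line came in a form labelled PT, taken here as parental because the labels give only the letters, and a form labelled BR, described as resistant through induction with bortezomib. There were 3 arrays of HBL2 PT, 3 of HBL2 BR, 2 of JEKO PT and 2 of JEKO BR, all from cells in logarithmic growth. The labels give no drug dose, do not say whether bortezomib was present at harvest, and do not say whether a BR form is 1 clone or a mixed population. Nothing says that replicates were separate cultures, so the p-values measure the spread between these arrays, which may be technical.

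Antibodies against such antigens act by recruiting complement and immune effector cells, by delivering a toxin into the cell, or by disturbing signalling, and each depends on how much antigen the cell displays. CD79A and CD79B are the signalling chains of the B cell receptor. CD22 is a sialic acid-binding inhibitor of that receptor, MS4A1 and CD37 are proteins that cross the membrane several times, CD52 and CD24 are short glycoproteins held by a glycosylphosphatidylinositol (GPI) anchor, and CD200 and CD70 are ligands for receptors on other immune cells. The measurements here are of RNA, not of protein at the cell surface.

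Values are given in the deposited units, which are log-like but whose base is not stated, so differences are not fold changes. Every array holds the same set of values in a different order, with a median of 0.7302 and a maximum of 4.988, so a value is in effect a rank within its array and a shift of all genes together cannot be seen. In a bulk sample, fewer cells with a transcript and less transcript per cell cannot be told apart. A change was called at a limma adjusted p under 0.05 (Benjamini-Hochberg over 14529 genes). Arrays of 1 group correlated at 0.9318 to 0.9578 over all probe sets. PT and BR arrays of a line correlated at 0.9166 to 0.9421, which overlaps that range, and arrays of the 2 lines at 0.8919 to 0.9128. The labelled cell type was checked on 11 B cell markers, whose summed value was 26.0 to 27.6 in HBL2 PT, 17.9 to 20.1 in HBL2 BR, 28 to 28.1 in JEKO PT and 26.8 to 27.3 in JEKO BR; 10 of the 11 fell in HBL2 BR, while in JEKO BR 1 rose and 1 fell. For 3 mantle cell lymphoma markers (CCND1, SOX11 and CD5) the sum was 4.57 to 4.78 in HBL2 PT and 4.50 to 4.71 in HBL2 BR. In JEKO it was 6.18 to 6.25 in PT and 5.59 to 5.83 in BR. None of the 3 was called between PT and BR in either line. In both forms 2 of the 3 were called lower in HBL2 than in JEKO. CD5 read 0.44 to 0.86 in the HBL2 arrays. The summed value of 8 T and NK cell markers was 3.76 to 4.72 in the HBL2 arrays, 4.52 to 4.63 in JEKO PT and 5.06 to 5.45 in JEKO BR, where CD7 rose by 0.62. The summed value of 10 plasma cell markers was 15.6 to 15.8 in HBL2 PT, 16.1 to 16.5 in HBL2 BR, 13.8 in both JEKO PT arrays and 15.1 to 15.4 in JEKO BR; of 9 tested, 5 rose and 1 fell in HBL2 BR, and 2 rose and 1 fell in JEKO BR. Of the myeloid markers, LYZ fell by 0.59 in HBL2 BR. The beta-actin 5′ probe set minus its 3′ probe set, a measure of RNA quality, was -1.25 to -0.58 in HBL2 PT, -1.04 to -0.69 in HBL2 BR, -0.82 to -0.70 in JEKO PT and -1.01 to -0.76 in JEKO BR. No marker was listed at 0, and the part of these markers in the results below was not tested.

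CD52, CD79A and CD24 are 3 of the antigens that fell in HBL2 BR, and the sequences before their start sites are printed so that their values can be read beside those of the B cell factors given further on. Each is the 250 bases before the annotated start, from RefSeq (GRCh38.p14), 5′ to 3′ on the gene's strand, with motif matches in capitals. Promoter entries matched 5 of the 9 genes; those of CD22 and CD200 are not printed.
CD52, chr1:26317708-26317957, plus strand: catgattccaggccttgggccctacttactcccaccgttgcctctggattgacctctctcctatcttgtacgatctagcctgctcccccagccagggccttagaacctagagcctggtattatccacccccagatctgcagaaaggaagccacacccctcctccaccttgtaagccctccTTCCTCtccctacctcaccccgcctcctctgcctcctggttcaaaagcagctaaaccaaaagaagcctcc
CD79A, chr19:41877029-41877278, plus strand: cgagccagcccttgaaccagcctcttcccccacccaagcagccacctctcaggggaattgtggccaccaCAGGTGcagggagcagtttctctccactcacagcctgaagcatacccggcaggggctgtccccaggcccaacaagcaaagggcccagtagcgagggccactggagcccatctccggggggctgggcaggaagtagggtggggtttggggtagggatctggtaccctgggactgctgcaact
CD24, chr6:106975628-106975877, minus strand, the most upstream of 3 annotated starts: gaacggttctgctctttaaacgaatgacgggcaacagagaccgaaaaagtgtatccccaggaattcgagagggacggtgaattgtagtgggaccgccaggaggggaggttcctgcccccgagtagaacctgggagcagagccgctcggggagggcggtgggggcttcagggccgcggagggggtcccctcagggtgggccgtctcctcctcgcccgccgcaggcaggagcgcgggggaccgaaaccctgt
Motifs of 4 B cell factors were searched on both strands: the octamer ATTTGCAT bound by OCT factors with POU2AF1, CCCNNGGG for EBF1, GAGGAA for PU.1 and SPIB, and the E-box CAGGTG for E proteins. They do not overlap in these windows. The CD52 window holds 1 match, TTCCTC, which is GAGGAA on the opposite strand, beginning 70 bases before the start. The CD79A window holds an E-box, CAGGTG, beginning 181 bases before the start, and the printed CD24 window holds none of the 4. The window of the most downstream annotated CD24 start, which is not printed, holds an EBF1 match, CCCTGGGG, and an E-box, CAGGTG, beginning 176 and 249 bases before that start. Over 35116 promoter windows of the same length, 23.6% hold GAGGAA, 17.5% CAGGTG, 17.1% CCCNNGGG and 1.63% the octamer. The CD200 window, which is not printed, holds a PU.1 match and an E-box, beginning 58 and 28 bases before the start. CD200 was not called in either line, so matches were not confined to antigens that fell. The CD22 window holds none of the 4. The matches describe the letters and were not tested as sites.

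In HBL2, 5 of the 9 antigens fell in the BR form and none rose: CD52, CD24, CD37, CD79A and CD79B. The background was 11.8% of all genes called in this comparison, with 6.86% lower and 4.91% higher. At an unadjusted p under 0.05 there were 6 lower and 0 higher. The share of all genes at that limit was not counted, here or for the unadjusted counts below. The median change over the 9 genes was -0.25, beside -0.00099 over all genes tested. MS4A1, CD22, CD200 and CD70 did not pass the test. The PT and BR arrays did not overlap for 6 of the 9 antigens in HBL2, where 27.3% of all genes did not overlap, and for 7 of the 9 in JEKO, where 50.8% did not. In JEKO, 1 of the 9, CD22, passed, and it rose; 4.28% of all genes were called there, and 2.56% were called higher. The median change over the 9 genes in JEKO was -0.13, beside 0.012 over all genes tested.

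**Figure D1:**
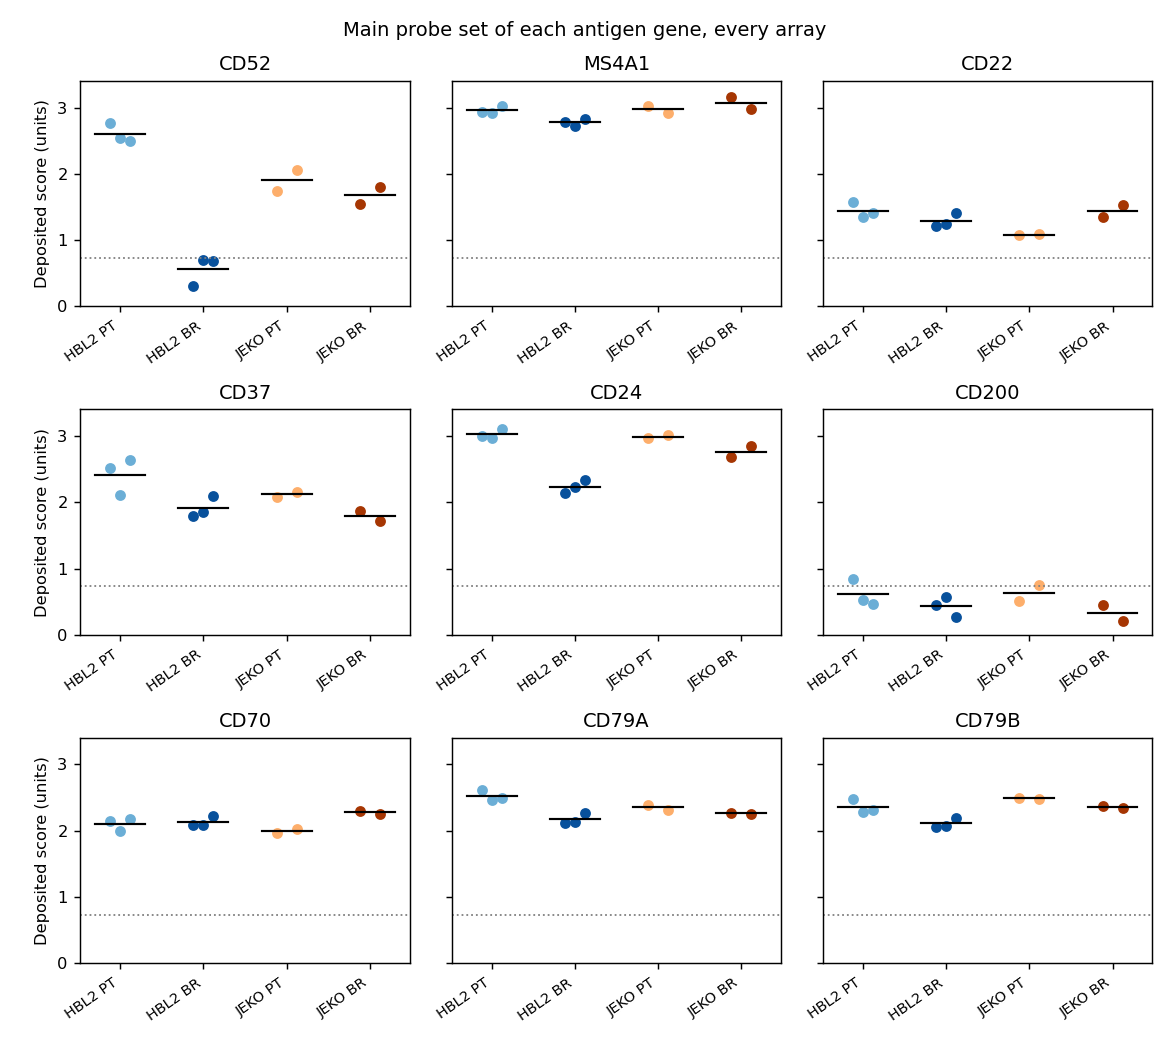
Value of the main probe set of each antigen on each of the 10 arrays, in deposited units, by group (HBL2 PT and BR with 3 arrays each, JEKO PT and BR with 2 each); points are arrays and bars are group means, and each panel is a different probe set, so heights are not compared between panels. CD52 lies at 0.30 to 0.70 in HBL2 BR and at 1.55 or above on every other array.

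CD52, the small GPI-anchored antigen bound by alemtuzumab, moved furthest of the 9. Its main probe set read 2.77, 2.54 and 2.49 in HBL2 PT and 0.30, 0.70 and 0.68 in HBL2 BR. The 2 groups were far apart: the 3 PT arrays placed CD52 at the 98.4th percentile on average, while all 3 BR arrays placed it below the array median, at the 9.38th to 46.8th percentile. The change in HBL2 was -2.04 ± 0.11 (SE; 95% interval -2.27 to -1.81; adjusted p = 6e-09), and it stayed called in each of 21 other settings. The other CD52 probe set read 2.53, 2.41 and 2.44 in HBL2 PT against 0.33, 0.44 and 0.60 in HBL2 BR, a change of -2.0 ± 0.072 in the test of every probe set (adjusted p = 9.66e-10).

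In JEKO, the main CD52 probe set read 1.75 and 2.06 in PT and 1.55 and 1.80 in BR. These 2 groups overlap, and the change of -0.23 ± 0.13 did not pass the test (adjusted p = 0.415; 95% interval -0.51 to 0.056). The second probe set read 1.91 and 1.94 in JEKO PT and 1.67 and 1.55 in JEKO BR, which do not overlap. Its change of -0.31 ± 0.088 in JEKO did not pass the test of every probe set (adjusted p = 0.11). The HBL2 change was lower than the JEKO change by 1.81 ± 0.17 (adjusted p = 8.95e-06). Ordered by mean of the main probe set, CD52 was highest in HBL2 PT (2.60 ± 0.15, SD, n = 3), then JEKO PT (1.90 ± 0.22, n = 2), JEKO BR (1.67 ± 0.18, n = 2) and HBL2 BR (0.56 ± 0.22, n = 3). Of these neighbours the JEKO forms overlapped on that probe set.

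CD24, a heavily glycosylated GPI-anchored protein that serves as a ligand of SIGLEC10, fell in HBL2 BR as well. Its main probe set read 3.01, 2.98 and 3.10 in HBL2 PT and 2.13, 2.24 and 2.34 in HBL2 BR. Every BR array was below every PT array, with a change of -0.79 ± 0.066 (adjusted p = 5.72e-07), and the call held in each of the 20 other settings that had a CD24 value. In JEKO it read 2.97 and 3.01 in PT and 2.69 and 2.85 in BR, which do not overlap, yet the change of -0.23 ± 0.080 did not pass (adjusted p = 0.137). The difference between the lines was -0.57 ± 0.10 (adjusted p = 0.00261).

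The 6 probe sets of CD24 moved alike in HBL2. Their changes ran from -0.79 to -0.56, and all 6 were called in the test of every probe set. In JEKO all 6 were negative, from -0.41 to -0.15, and none passed, with 4 of the 6 at an unadjusted p under 0.05. On 4 of the 6 the difference between the lines was called; it was -0.43 (adjusted p = 0.138) and -0.15 (0.702) on the others. All 6 are of the kinds, marked _x_at or _s_at, that can also bind related transcripts, and CD24 has near-identical copies in the genome, so the gene's own share of the signal is uncertain. The order by mean was HBL2 PT 3.03 ± 0.064 (SD, n = 3), JEKO PT 2.99 ± 0.024 (n = 2), JEKO BR 2.77 ± 0.11 (n = 2) and HBL2 BR 2.24 ± 0.10 (n = 3), with the PT forms overlapping each other.

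The enzymes that build the GPI anchor did not pass the test in either line. Of 27 anchor synthesis genes tested, 0 were called by limma in either line; at an unadjusted p under 0.05 there were 2 higher in HBL2, and 2 higher and 2 lower in JEKO. PIGA, which acts in the first step, read 1.34 to 1.57 in HBL2 PT and 1.36 to 1.5 in HBL2 BR, with the groups overlapping. Of 11 other GPI-anchored leukocyte proteins tested, 3 fell in HBL2 BR and none rose. CD48, a ligand of CD244 on NK cells, read 2.42, 2.37 and 2.36 in HBL2 PT and 1.66, 1.68 and 1.76 in HBL2 BR, a change of -0.68 ± 0.059 (adjusted p = 9.05e-07).

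In JEKO, CD48 went the other way, with PT arrays at 1.54 and 1.48 and BR arrays at 1.89 and 2.03, a rise of 0.45 ± 0.073 (adjusted p = 0.00235; 0.0647 without JEKO BR replicate 2). The difference between the lines was -1.13 (adjusted p = 2.90e-06). The other calls in HBL2 were LY6E at -0.37 (adjusted p = 0.0141) and CD55 at -0.24 (adjusted p = 0.00879). The LY6E call was lost without HBL2 PT replicate 1 (0.0682), HBL2 PT replicate 2 (0.0513) or HBL2 BR replicate 2 (0.0654). It was also lost with percentile ranks (0.226) and normal scores (0.081). Without probe sets of the kinds _x_at and _s_at CD55 was not called (0.215). CD55 shields cells from complement, through which some of these antibodies act; it was the only 1 of 6 complement regulators tested that was called in HBL2. In JEKO 0 of the 6 were called, with 0 at an unadjusted p under 0.05.

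CD79A and CD79B form the heterodimer that carries the signal of surface immunoglobulin, and CD79B is the target of polatuzumab vedotin. Both fell in HBL2 BR by a small amount. CD79A read 2.62, 2.47 and 2.49 in HBL2 PT and 2.12, 2.13 and 2.26 in HBL2 BR, a change of -0.35 ± 0.061 (adjusted p = 0.000981) that stayed called in each of 21 other settings. The second CD79A probe set changed by -0.32 ± 0.061 (adjusted p = 0.00492 in the test of every probe set). The BR arrays were below the PT arrays on both probe sets.

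CD79B read 2.47, 2.28 and 2.32 in HBL2 PT and 2.06, 2.08 and 2.20 in HBL2 BR. The groups do not overlap, and the change was -0.25 ± 0.063 (adjusted p = 0.0173). Leaving out HBL2 PT replicate 1 ended the call (adjusted p = 0.0568), as did leaving out HBL2 BR replicate 1 (0.0841) or replicate 2 (0.0861), and so did the median over the gene's 3 probe sets, which gave -0.014 (0.949). The other 2 CD79B probe sets were low on nearly all arrays and changed by 0.036 and -0.10, neither called.

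In JEKO, CD79A read 2.39 and 2.32 in PT and 2.27 and 2.25 in BR, and CD79B read 2.50 and 2.48 in PT and 2.38 and 2.34 in BR. In both, the BR arrays were slightly lower without overlap, and neither change passed: -0.092 ± 0.075 for CD79A (adjusted p = 0.589) and -0.13 ± 0.077 for CD79B (adjusted p = 0.414). The differences between the lines did not pass for either chain, at -0.26 (adjusted p = 0.114) and -0.11 (0.577). For CD79A the order by mean was HBL2 PT, JEKO PT, JEKO BR and HBL2 BR, with the BR forms overlapping. For CD79B it was JEKO PT, then JEKO BR and HBL2 PT, which overlap, then HBL2 BR.

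Of 15 partners and signalling genes of these antigens that were tested, 9 fell in HBL2 BR and none rose; at an unadjusted p under 0.05 there were 12 lower and 0 higher. The kinases LYN and SYK, which act directly on the CD79 chains, each changed by -0.28 (adjusted p = 0.00546 and 0.00651), and the adaptor BLNK by -0.25 (0.00827). The phosphatases that inhibitory receptors such as CD22 recruit fell too: PTPN6 by 0.35 (0.0012) and INPP5D by 0.38 (0.000304; 0.0782 with the median over probe sets). In JEKO 1 of the 15 rose and 1 fell, BLNK at 0.28 (0.0336) and BTK at -0.34 (0.0183). The BLNK call was lost without the intensity trend (0.0785), with percentile ranks (0.392) and with normal scores (0.0893). Both JEKO calls were lost without either JEKO PT array or without JEKO BR replicate 1, and BLNK also without JEKO BR replicate 2 or HBL2 BR replicate 2.

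**Figure D2:**
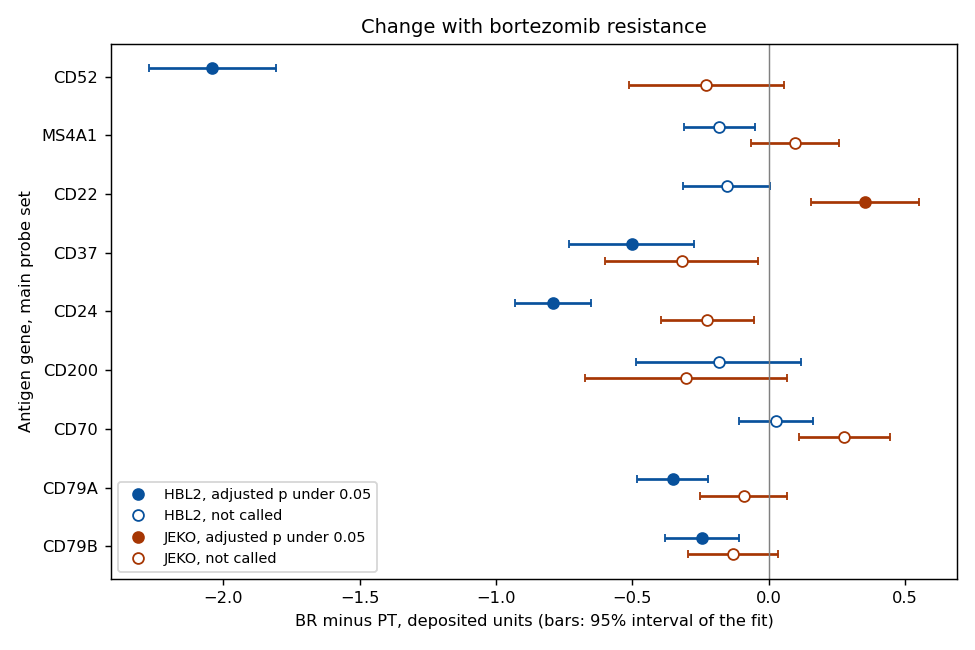
Change from PT to BR of each antigen's main probe set in HBL2 and in JEKO, in deposited units, with 95% intervals from the fit; filled points passed the test at an adjusted p under 0.05. CD52 in HBL2 lies at -2.04, and CD22 in JEKO is the 1 antigen called above 0.

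CD22, the target of inotuzumab ozogamicin and moxetumomab pasudotox, had opposite signs in the 2 lines. It read 1.08 and 1.09 in JEKO PT and 1.35 and 1.53 in JEKO BR, a rise of 0.35 ± 0.093 (adjusted p = 0.0421). In HBL2 it read 1.58, 1.34 and 1.41 in PT and 1.21, 1.24 and 1.40 in BR, which overlap, and the change of -0.16 ± 0.076 did not pass (adjusted p = 0.233). The difference between the lines was -0.51 ± 0.12 (adjusted p = 0.0139).

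The JEKO call for CD22 was close to the threshold. It was lost in 11 of 21 other settings, with adjusted p-values of 0.196 and 0.157 without JEKO PT replicates 1 and 2, and 0.0583 and 0.37 without JEKO BR replicates 1 and 2. It was also lost without HBL2 BR replicate 1 (0.0528) or replicate 2 (0.0574). The difference between the lines was lost without JEKO PT replicate 1 (0.057) or JEKO BR replicate 2 (0.103). All 4 CD22 probe sets were positive in JEKO, from 0.16 to 0.48, and negative in HBL2, from -0.23 to -0.035. The order by mean of the main probe set was HBL2 PT 1.44 and JEKO BR 1.44, which overlap, then HBL2 BR 1.29 and JEKO PT 1.08. On that probe set JEKO PT lies below all other arrays. On each other CD22 probe set at least 1 HBL2 array lies below a JEKO PT array.

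CD22 binds sialic acid in the linkage that ST6GAL1 makes. The main ST6GAL1 row read 1.76 to 1.96 in HBL2 PT and 1.11 to 1.34 in HBL2 BR, a change of -0.63 ± 0.070 (adjusted p = 1.14e-05), but the median over its probe sets turned the direction to 0.00876, so its direction is uncertain. SIGLEC10, the receptor for CD24 and a relative of CD22, read 2.20, 2.14 and 2.25 in HBL2 PT and 1.68, 1.65 and 1.80 in HBL2 BR, a change of -0.49 ± 0.062 (adjusted p = 4.64e-05). In JEKO SIGLEC10 changed by 0.12 ± 0.076 and did not pass (adjusted p = 0.441), and its difference between the lines was -0.61 (adjusted p = 0.000927). Of 7 other Siglecs tested, SIGLEC10 was the 1 called in HBL2. SIGLEC7 was the 1 called in JEKO, at 0.42 (adjusted p = 0.0314), a call lost without any single JEKO array (0.0892 to 0.886).

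MS4A1, the target of rituximab, was high on every array and did not pass the test in either line. Its main probe set read 2.94, 2.92 and 3.03 in HBL2 PT and 2.79, 2.73 and 2.82 in HBL2 BR. The BR arrays were slightly lower without overlap, at -0.18 ± 0.062 (adjusted p = 0.0717; 95% interval -0.31 to -0.050), and 3 of 21 other settings called it. Its 3 other probe sets changed by 0.024, -0.072 and 0.032 in HBL2, none called. In JEKO the main probe set read 3.03 and 2.92 in PT and 3.15 and 2.98 in BR, a change of 0.096 ± 0.076 (adjusted p = 0.577). By mean the order was JEKO BR 3.07, JEKO PT 2.97, HBL2 PT 2.96 and HBL2 BR 2.78; the first 3 overlap, and HBL2 BR lies below all other arrays. Of 6 other MS4A genes tested, 0 were called by limma in either line, with 2 lower in HBL2 and 0 in JEKO at an unadjusted p under 0.05.

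CD37, a tetraspanin that organises signalling proteins in the membrane and is the target of naratuximab, fell in HBL2 BR. Its main probe set read 2.52, 2.10 and 2.63 in HBL2 PT and 1.80, 1.86 and 2.09 in HBL2 BR. The groups only just separate, since the lowest PT array and the highest BR array are close, and the change was -0.50 ± 0.11 (adjusted p = 0.00511). With the median over its probe sets the change was -0.19 and the call was lost (0.292); the other CD37 probe set was near or below the array median on nearly all arrays. In JEKO, CD37 read 2.08 and 2.16 in PT and 1.87 and 1.72 in BR, lower without overlap, and the change of -0.32 ± 0.13 did not pass (adjusted p = 0.213). The difference between the lines was -0.18 ± 0.17 (adjusted p = 0.601), with a 95% interval of -0.55 to 0.18. By mean the order was HBL2 PT 2.42, JEKO PT 2.12, HBL2 BR 1.91 and JEKO BR 1.80, and each neighbouring pair overlaps.

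Of 22 other tetraspanins tested, 3 rose and 4 fell in HBL2 BR, and 1 rose in JEKO BR. TSPAN33, a tetraspanin of activated B cells, fell by 0.48 (adjusted p = 0.000755), and CD53, a leukocyte tetraspanin, by 0.39 (0.00026; 0.125 with the median over probe sets), while TSPAN12 rose by 0.39 (0.00727; 0.0523 without HBL2 BR replicate 1). CD9 was called at -0.30 in HBL2 and 0.59 in JEKO, but the median over its probe sets gave 0.0428 and -0.0401, so its direction is uncertain in both lines. CD81, a partner of the B cell co-receptor, changed by -0.16 in HBL2 (0.082) and 0.21 in JEKO (0.1); neither passed, and the difference between the lines did (-0.37, adjusted p = 0.0149).

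CD70 is the ligand of CD27 and the target of cusatuzumab. Its only probe set read 2.14, 2.0 and 2.17 in HBL2 PT and 2.09, 2.08 and 2.23 in HBL2 BR, which overlap, with a change of 0.027 ± 0.064 (adjusted p = 0.861; 95% interval -0.11 to 0.16). In JEKO it read 1.97 and 2.03 in PT and 2.31 and 2.25 in BR. The JEKO BR arrays lie above all other arrays, and the change of 0.28 ± 0.078 just missed the threshold (adjusted p = 0.0592) and passed it in 7 of 21 other settings. The difference between the lines was -0.25 ± 0.10 (adjusted p = 0.149). By mean the order was JEKO BR 2.28, HBL2 BR 2.13, HBL2 PT 2.10 and JEKO PT 2.0, with the last 3 overlapping as neighbours. Its receptor CD27 read 0.52 to 0.83 in the HBL2 arrays and 1.55 to 1.81 in the JEKO arrays, and changed by -0.14 in HBL2 (adjusted p = 0.247) and -0.18 in JEKO (0.299).

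CD200, a ligand that restrains myeloid cells through CD200R1 and the target of samalizumab, was low throughout. Its main probe set read 0.85, 0.52 and 0.47 in HBL2 PT, 0.44, 0.57 and 0.27 in HBL2 BR, 0.51 and 0.75 in JEKO PT, and 0.45 and 0.21 in JEKO BR. It was at or above the array median on 2 of 10 arrays, and its second probe set on 0 of 10. The changes of -0.18 ± 0.14 in HBL2 (adjusted p = 0.487) and -0.30 ± 0.17 in JEKO (0.403) did not pass, and the files used here hold no detection calls that could tell these values from background. CD200R1 changed by 0.040 in HBL2 (adjusted p = 0.822), turning to -0.0066 with array weights and -0.013 without HBL2 PT replicate 1, and by -0.016 in JEKO (0.961), turning to 0.00074 with the beta-actin covariate.

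**Figure D3:**
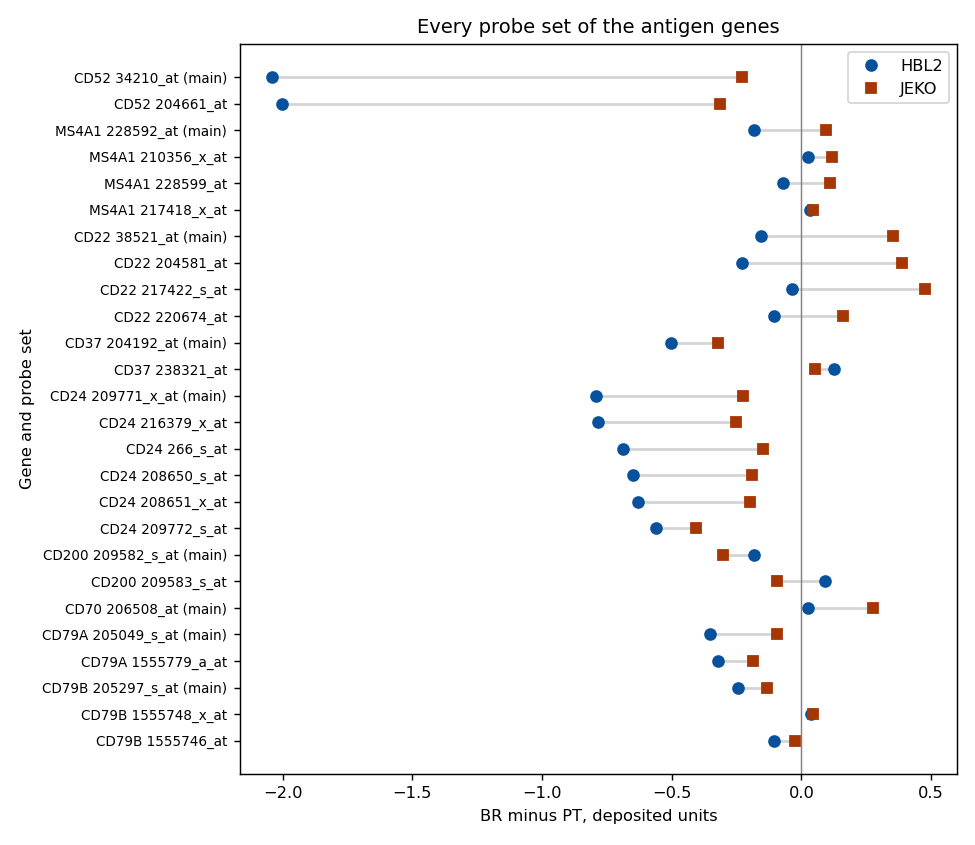
Change from PT to BR of each of the 26 probe sets of the antigens, in deposited units, in HBL2 (circles) and JEKO (squares), joined by a line per probe set. Both CD52 and all 6 CD24 probe sets lie further below 0 in HBL2 than in JEKO, and the 4 CD22 probe sets lie above 0 in JEKO.

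Tested one by one among 41091 probe sets, 12 of the 26 antigen probe sets were called in HBL2, where 4.66% of all probe sets were called. Probe sets of 1 gene are not independent: of the 12, 6 are of CD24, 2 of CD52 and 2 of CD79A. The shares are over all 41091 probe sets, with no filter on low values, so they are not a like background for the antigens. In HBL2 20 were negative and 6 positive. In JEKO 0 of the 26 were called by limma, where 1.22% of all were called. At an unadjusted p under 0.05 there were 11 of the 26, and the share of all probe sets at that limit was not counted. There 15 were negative and 11 positive. In the difference between the lines 8 of the 26 were called (4 of CD24, 2 of CD52 and 2 of CD22), against 3.10% of all, and 23 were negative. Among the main rows, 3 of 9 genes were called in the difference between the lines, CD52, CD24 and CD22, each lower in HBL2, where 8.71% of all genes were called and 5.76% were called lower.

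Between the lines, 2 of the 9 antigens were called in the PT forms, where 23.1% of all genes were called and 13.9% were called higher in HBL2. CD52 was 0.70 ± 0.12 higher in HBL2 PT than in JEKO PT (adjusted p = 0.000619), a call lost when values were turned into percentile ranks (0.741) or normal scores (0.113), and CD22 was 0.36 ± 0.085 higher (0.00568). All 4 CD22 probe sets were higher in HBL2 PT, and 1 of the 4 was called in the test of every probe set. In the BR forms 4 of 9 were called, where 28.1% of all genes were called and 14.1% were called lower in HBL2, and each of the 4 was lower in HBL2 BR. CD52 was 1.11 ± 0.12 lower (adjusted p = 4.67e-06), so that the line with more CD52 among the PT forms had less among the BR forms.

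Also lower in HBL2 BR than in JEKO BR were CD24, by 0.53 ± 0.073 (adjusted p = 5.05e-05), MS4A1, by 0.29 ± 0.069 (0.005), and CD79B, by 0.25 ± 0.071 (0.015). The MS4A1 call was lost with percentile ranks (0.147), with the median over probe sets (0.0771) and without JEKO BR replicate 1 (0.115). The CD79B call was lost with the median over probe sets (0.148), without HBL2 BR replicates 1 or 2 (0.0594 and 0.0576) and without either JEKO BR array (0.108 and 0.0702). These comparisons use the same arrays as the changes within each line and are not separate evidence.

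**Figure D4:**
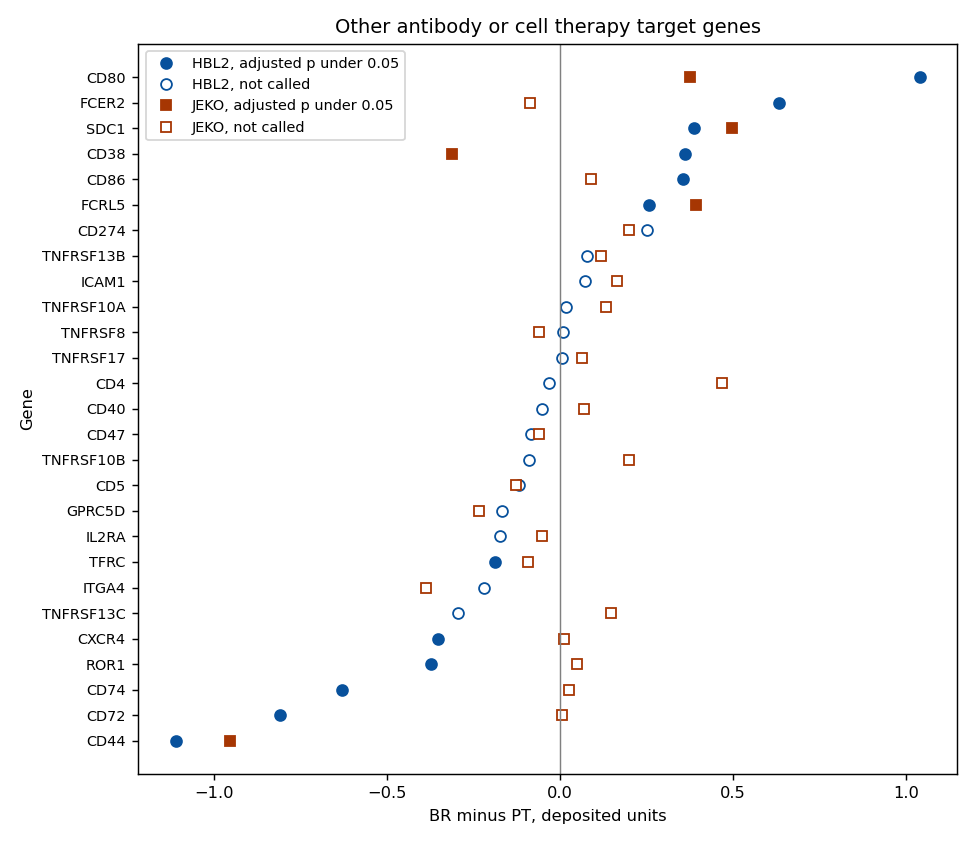
Change from PT to BR, in deposited units, of the 27 other antibody or cell therapy target genes tested, in HBL2 (circles) and JEKO (squares), ordered by the HBL2 change; filled points passed the test at an adjusted p under 0.05. CD80 stands at 1.04 and 0.38 and CD44 at -1.11 and -0.95 (-0.27 and -0.33 with the median over its probe sets), while CD72 lies at -0.81 in HBL2 and near 0 in JEKO.

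Of 27 other genes whose products are targets of antibodies or cell therapies, 6 rose and 6 fell in HBL2 BR, and 3 rose and 2 fell in JEKO BR. Their median change was -0.052 in HBL2 and 0.050 in JEKO. CD80, the costimulatory ligand bound by galiximab, read 0.96 to 0.97 in HBL2 PT and 1.94 to 2.06 in HBL2 BR, a rise of 1.04 ± 0.058 (adjusted p = 7.57e-09). In JEKO it rose by 0.38 ± 0.071 (0.00675; 0.0510 to 0.0581 without JEKO PT replicate 1 or either JEKO BR array). FCER2 (CD23), the target of lumiliximab, rose by 0.63 in HBL2 (adjusted p = 0.000255). CD38, the target of daratumumab, rose by 0.36 in HBL2 (0.00215) and fell by 0.31 in JEKO (0.0495), a difference of 0.68 between the lines (0.00109). The JEKO call of CD38 only just passed the threshold, and CD38 was not run in the other settings.

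CD72, a B cell co-receptor, read 1.92, 1.78 and 1.89 in HBL2 PT and 0.98, 0.97 and 1.22 in HBL2 BR, a change of -0.81 ± 0.072 (adjusted p = 1.06e-06). In JEKO its arrays read 1.88 to 1.99 in both forms, and the difference between the lines was -0.81 (adjusted p = 0.000284). Other targets with every HBL2 BR array below every HBL2 PT array include CD74, ROR1 and CXCR4. CD74 read 2.95 to 3.34 in HBL2 PT and 2.37 to 2.70 in HBL2 BR. ROR1 read 1.70 to 1.76 and 1.33 to 1.39, and CXCR4 2.78 to 2.80 and 2.31 to 2.52, in the same order. CD44, an adhesion receptor, fell in both lines, by 1.11 in HBL2 (adjusted p = 4.93e-06) and 0.95 in JEKO (0.00101), but its median over probe sets was smaller, at -0.27 in HBL2 and -0.33 in JEKO, and passed in neither (0.0526 and 0.0987), and in JEKO it was not called with percentile ranks (0.109) or normal scores (0.0637). SDC1 (CD138), the plasma cell proteoglycan, rose in both, by 0.39 in HBL2 (0.0127) and 0.50 in JEKO (0.0244), and FCRL5 by 0.26 (0.0192) and 0.39 (0.0134). The JEKO call of SDC1 was lost without JEKO PT replicate 2 or either JEKO BR array, and that of FCRL5 without either JEKO PT array or JEKO BR replicate 1. Without _x_at and _s_at probe sets the JEKO changes were 0.26 for SDC1 (0.181) and 0.21 for FCRL5 (0.191), and the median over probe sets gave 0.38 (0.0526) and 0.21 (0.172), so neither was called. SDC1 was not called without the intensity trend (0.0625), with percentile ranks (0.109) or with normal scores (0.0698) either.

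Of 19 factors that direct B cell genes, 7 fell and 3 rose in HBL2 BR, and 0 were called by limma in JEKO, with 5 higher and 2 lower at an unadjusted p under 0.05. POU2AF1, the coactivator of the octamer factors, read 2.79, 2.67 and 2.87 in HBL2 PT and 1.65, 1.72 and 1.99 in HBL2 BR, a change of -0.99 ± 0.086 (adjusted p = 9.05e-07). SPIB fell by 0.66 (3.39e-06), BACH2 by 0.56 (0.000255) and ID3 by 0.48 (0.00122). The 3 that rose are factors of plasma cells: IRF4 by 0.43 (0.00104), PRDM1 by 0.38 (0.000893) and XBP1 by 0.21 (0.0417). They are also counted among the plasma cell markers above. XBP1 was close to the threshold, and none of the 3 was run in the other settings. Of the other plasma cell markers, CD38 and SDC1 rose as well, while JCHAIN went the opposite way. JCHAIN read 2.42, 2.49 and 2.48 in HBL2 PT and 1.21, 1.57 and 1.36 in HBL2 BR. TNFRSF17 changed by 0.0068 in HBL2 and was not called (0.968). PAX5, at -0.18 (0.217), and EBF1, at -0.17 (0.176), which act on CD79A, did not pass.

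The genes whose values ran most like each antigen's were listed by Pearson's r over the 10 arrays, which fall into 4 groups, so r largely follows the group means and is given as a description. For CD52 these were PARVG (r = 0.974), RIN3 (0.972) and SPRING1 (0.970). For CD24 they were PPIL3 (0.984), TMEM60 (0.981) and NDE1 (0.978), for CD79A LGALS9 (0.971), HSPB1 (0.968) and NPC2 (0.967), and for CD22 GM2A (0.980), GSTK1 (0.960) and CD81 (0.954). For MS4A1, CD37, CD200, CD70 and CD79B the gene most like each was WFDC21P (0.949), TMEM134 (0.966), NINL (0.909), F12 (0.941) and TRPM4 (0.970). Among the antigens, CD24 and CD52 ran together at r = 0.950 over the 10 arrays and at 0.574 after the group means were removed.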

How the data were processed

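The 10 total RNA samples of the HBL2 and JEKO lines were hybridised, biotin-labelled, to Affymetrix expression arrays, 1 sample per array. The deposited table gives 1 value per probe set and array, treated here as a score because the authors' scale and log base are not stated; the submitters' processing notes name MAS5 and give no version, and of further steps the sources used here say nothing. The deposited scores span 0 to 4.988, and sorted arrays are identical (largest difference 0). The values were used as deposited, with no further log.

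Of 54675 probe sets, 62 are controls, 41091 carry 1 gene symbol, 1801 several and 11721 none; 41037 gene numbers matched RefSeq. Each gene was read by its probe set with the highest mean, where that reached the 50th percentile of its array on 2 or more arrays (14529 genes). Group means were fitted in limma 3.58.1 (R 4.3.3) with an intensity trend, 4 groups in 1 model and 6 residual degrees of freedom, over 5 contrasts, and called at an adjusted p under 0.05 (Benjamini-Hochberg). The fit was tested on simulated data before use. The smallest two-sided p of an exact permutation test of a single gene would be 0.1 in HBL2 and 0.333 in JEKO, so none was run.

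The antigens and gene lists were chosen with earlier results of these data known, and counts over them are descriptions. Named list genes were, per list and line, up to 4 called genes with the largest change, plus the receptors or partners CD27, CD200R1, SIGLEC10 and CD81. Others were named after their values were seen: CD38, CD74, ROR1, CXCR4, LYN, SYK, BLNK in HBL2, PIGA, IRF4, PRDM1, XBP1, PAX5 and EBF1. The same holds for CD5, CD7, LYZ, JCHAIN and TNFRSF17 among the markers. None of these was run in the other settings, nor were SDC1 and FCRL5 in HBL2. The number of arrays limits precision, and no detection calls were used. The plots were drawn with matplotlib 3.10.9.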

Additional observations from a re-analysis of the deposited data

Results flagged for a closer look

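The change from PT to BR differed between HBL2 and JEKO, by a limma test of the difference itself, for 3 of the 9 antigens. The HBL2 change of CD52 was lower than its JEKO change, at -1.81 (adjusted p = 8.95e-06). CD24 gave -0.57 (0.00261), with falls in HBL2 and values that did not pass in JEKO. The CD24 difference was called on 4 of its 6 probe sets. CD22 gave -0.51 (0.0139), with a rise in JEKO and values that did not pass in HBL2, and it was the 1 of these 3 that lost its call when some single arrays were left out. No group of 4 or more arrays exists, so no array was examined as an outlier within its group.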

How the results depend on the processing

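CD52, CD24 and CD79A stayed called in HBL2 in every other setting that gave a value, and the count of antigens called in JEKO was the least stable. That count, 1 in the reported fit, was 0 with no filter, without the intensity trend, with a replicate block within a line, with percentile ranks, with normal scores and with every probe set tested (an alternative chosen after seeing the data). It was 2 with a filter at the 75th percentile, with array weights or with the beta-actin covariate, and 3 with only the groups compared. The 5 antigens called in HBL2 became 3 with the median over probe sets and 3 without _x_at or _s_at probe sets, where CD24 and CD79B, as well as CD200, have no value; the latter left 2 of 4 in HBL2 BR against JEKO BR. In HBL2 PT against JEKO PT, 2 became 1 with percentile ranks and 1 with normal scores. Array weights gave 2684 called genes in HBL2 (1711 reported), 1032 in JEKO (622) and 1948 in the difference (1266), and no intensity trend gave 389 in JEKO.

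Leaving out single arrays gave 1114 to 1647 genes and 4 to 5 antigens in HBL2, 114 to 945 genes and 0 to 2 antigens in JEKO, 661 to 1479 genes and 2 to 3 antigens in the difference, 1984 to 3615 genes and 2 to 3 antigens between the PT forms, and 2430 to 4611 genes and 2 to 4 antigens between the BR forms. The lowest counts of genes came without HBL2 BR replicate 2, without JEKO BR replicate 2 (JEKO, difference and BR forms) and without JEKO PT replicate 2 (PT forms); the lowest count of antigens between the BR forms came without JEKO BR replicate 1. A lone remaining JEKO array is assumed to vary like the other groups.

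Some small uncalled differences, and the called ones of ST6GAL1 and CD9, changed sign. With array weights CD200R1 in HBL2 was -0.00663. With the median over probe sets ST6GAL1 and CD9 in HBL2 were 0.00876 and 0.0428, and CD9 and CD79B in JEKO -0.0401 and 0.0146. With percentile ranks the CD37 difference between the lines was 0.0418 percentile points. With the beta-actin covariate CD200R1 in JEKO was 0.000739, and MS4A1 between the PT forms 0.00726. With a replicate block by number CD24 and CD200 between the PT forms were -0.00746 and 0.0571. Leaving out single arrays took CD200R1 in HBL2 from -0.0132 to 0.0795 and CD70 in HBL2 from -0.0265 to 0.0607. Between the PT forms it took MS4A1 from -0.0683 to 0.0449 and CD200 from -0.137 to 0.0539. CD200 ran from -0.00312 to 0.241 in the difference and from -0.0220 to 0.223 between the BR forms.

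Whether replicate numbers pair the arrays could not be decided. Same-numbered PT and BR arrays deviated together at r = 0.0168, 0.137 and 0.00752 in HBL2 and 0.0781 in JEKO. Unlike numbers in HBL2 gave -0.202 to 0.155, the highest for PT replicate 1 with BR replicate 3. In JEKO unlike numbers gave -0.0781, because the deviations within a form mirror each other there. The JEKO check thus holds a single value up to its sign. With the replicate block within a line, 6 antigens were called in HBL2 and 0 in JEKO. In simulated data with 14529 genes, 100 genes were changed at each size. Changes of 0.3 units were recovered in 38% of cases for HBL2 and 14% for JEKO, and changes of 1 unit in 98% for both. Fewer genes were changed there than were called in either line, and the adjusted p depends on that share. The rates are thus a rough guide for the real fit, in which small changes can be missed, above all in JEKO.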
